A study of Mus musculus with 30 samples.

Results

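The 10 genes described here belong to the growth hormone (GH) and insulin-like growth factor (IGF) axis. They are the hormone genes Gh and Prl, the GH receptor gene Ghr, the ligands Igf1 and Igf2, the receptors Igf1r and Igf2r, and the binding protein genes Igfbp2, Igfbp4 and Igfbp5. They were taken by gene symbol from a table of 23303 gene entries, and all 10 were found in it. The genes were chosen by function and with results of these data known. The Immo+FC against FC differences of Gh and Igf2 in amygdala and of Gh and Igf1r in blood may have entered that choice, and are therefore given as a description with no test.

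The samples were 30 RNA-seq libraries, 16 from amygdala and 14 from blood, of wild-type C57BL/6J mice, all adult males 2 to 3 months old. Each library was made from a pool of 2 mice of 1 behavioral group. Home cage (HC) mice were handled and had neither immobilization nor conditioning (6 amygdala and 4 blood libraries). Fear conditioned (FC) mice heard tones paired with foot shocks and were killed 2 h later (6 amygdala and 5 blood libraries). Immo+FC mice had the same conditioning a week after 2 h of immobilization (4 amygdala and 5 blood libraries), and no group was immobilized without conditioning. Amygdala tissue came as 1 mm bilateral punches centred on the basolateral nucleus, which may hold neighbouring subregions, and trunk blood was depleted of globin mRNA. Within a tissue the replicates are pools of different mice, so p-values measure the spread between pools. By the pool numbers in the labels, most pools gave a library in each tissue, so the 2 tissues are not independent. Library numbers do not match across tissues: HC blood library 3 shares its pool with HC amygdala library 5.

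Growth hormone and prolactin are peptide hormones of the anterior pituitary. GH acts through its receptor and the kinase JAK2, and drives the making of IGF1, largely in the liver. IGF1 and IGF2 signal through the IGF1 receptor, the IGF2 receptor removes IGF2 from the cell surface, and the binding proteins carry the IGFs and set how much of them reaches the receptor. In the brain, Igf2 is known as a product of the choroid plexus and the leptomeninges, and Igfbp2 is abundant there too.

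Library depth ran from 23148078 to 31366290 sequences in the amygdala set and from 9081977 to 25892322 in the blood set, where HC library 4 was the shallowest. The labelled tissues held their markers. In FPKM, fragments scaled to transcript length and library size, 8 genes of amygdala nuclei summed to 1027 to 1241 in the amygdala libraries and 73.8 to 123 in those of blood. The sum of 10 neutrophil genes was 4488 to 44165 FPKM in blood libraries and 2.00 to 5.54 FPKM in amygdala libraries. HC blood library 3 stood apart from the other HC blood libraries, with a summed neutrophil level of 29623 against 4488 to 5670 in the other 3. Blood of HC mice also held more neuron transcripts, with a summed level of 11 genes of 23.1 to 69.1, against 10.9 to 25.9 in FC and 9.98 to 25.5 in Immo+FC.

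The axis in amygdala was made up of binding proteins, receptors and Igf2, with little Igf1 and, apart from 1 library, hardly any Gh. Levels in FPKM are given per transcript length and can be set against each other within a tissue. Igfbp4 was highest, with a median of 20.9 FPKM and a range of 17.6 to 22.7 over the 16 libraries. It was followed by Igfbp5 (median 14.7 FPKM, 12.2 to 18.8) and Igfbp2 (14.2 FPKM, 7.66 to 23.1), whose ranges overlapped each other and that of Igfbp4. Igf2 came next at a median of 7.54 FPKM (2.81 to 14.4). Igf1r (5.32 FPKM, 4.77 to 6.55) and Igf2r (4.93 FPKM, 3.89 to 5.42) overlapped in range and lay within that of Igf2. Ghr was lower than every library of both receptors, at 2.55 FPKM (2.27 to 3.45), and Igf1 lower again, at 0.916 FPKM (0.645 to 1.37). Gh was listed at 0 in 11 libraries and Prl in 14.

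In blood the order was different, although the authors normalized each tissue on its own, so a level in blood and one in amygdala can only be set side by side. Igfbp4 was the single abundant member, with a median of 86.7 FPKM (62.9 to 115). Igf2r (1.93 FPKM, 1.34 to 2.83), Gh (1.90 FPKM, 0.483 to 4.87) and Igf1r (1.59 FPKM, 0.819 to 3.63) followed, and their ranges overlapped. Igfbp5 (0.440 FPKM, 0.278 to 1.35), Igf2 (0.439 FPKM, 0.0909 to 0.690), Igfbp2 (0.262 FPKM, 0 to 0.723), Ghr (0.131 FPKM, 0 to 0.317) and Igf1 (0.0609 FPKM, 0 to 0.465) were near the lower end of what the table holds, with overlapping ranges. Prl was listed at 0 in all 14 blood libraries. The plot of all members shows that 9 of the 10 genes were seen in both tissues and that Igfbp4 alone stood well above the others in blood.

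**Figure D1:**
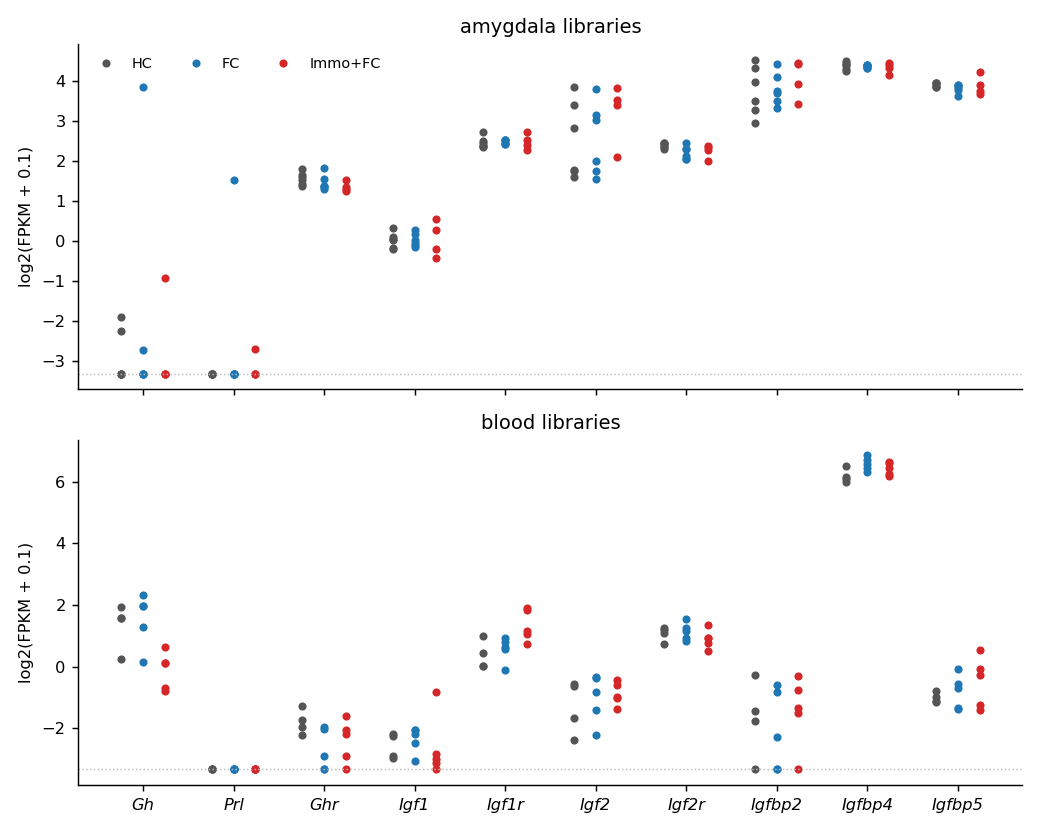
Level of each GH and IGF axis gene in every library, as log2(FPKM + 0.1), in amygdala (top) and blood (bottom). Each point is 1 library, the colours give the group, and the dotted line marks a listed value of 0. Igfbp4, Igfbp2 and Igfbp5 lead in amygdala and Igfbp4 in blood, and a single FC amygdala library lies far above the rest for Gh and Prl.

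The questions below followed from the design: whether these genes differed after conditioning (FC against HC), whether earlier immobilization altered the conditioned state (Immo+FC against FC), and whether both exposures together differed from the home cage (Immo+FC against HC). Differences were tested with limma on log2(FPKM + 0.1), over all genes whose tissue mean reached 0.5 FPKM and with Benjamini-Hochberg adjustment, at an adjusted p under 0.05. The 3 comparisons share groups, so their results are not independent of each other. In amygdala Prl fell under the expression minimum and Gh reached it through 1 FC library alone, so neither is counted here. Past the threshold were 0 of 8 members in FC against HC, where 0.0148% of the 13508 genes passed. The count was 0 of 7 in Immo+FC against FC, with Igf2 set aside, where 0.0222% of genes passed. In Immo+FC against HC it was 0 of 8, where 0.2% did. Igf2 in the comparisons with HC shares libraries with the difference set aside, so it is no independent support. At an unadjusted p under 0.05, 1 of these members was lower in FC against HC (Igf2r) and 0 reached that level in the other amygdala comparisons, while 13.1%, 10.4% and 13.1% of all genes reached it.

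In blood 5 members entered the test (Gh, Igf1r, Igf2r, Igfbp4 and Igfbp5), and the others fell under the expression minimum. Again 0 of 5 passed in FC against HC (0.0343% of the 11656 genes did) and in Immo+FC against HC (0.0686%), and 0 of 3 in Immo+FC against FC (0%), with Gh and Igf1r set aside. At an unadjusted p under 0.05 were Igfbp4 in FC against HC, 0 of the 3 members in Immo+FC against FC, and Gh and Igf1r in Immo+FC against HC. All-gene shares at that level were 10.2%, 9.54% and 15.3%. Gh and Igf1r in Immo+FC against HC share their Immo+FC libraries with the differences set aside, so they are no independent support. In no comparison of either tissue did the libraries of 2 groups separate fully for a member. Groups that did not overlap were found for 1.39%, 2.28% and 2.57% of genes in amygdala, in the order FC against HC, Immo+FC against FC and Immo+FC against HC, and for 3.88%, 1.58% and 4.61% in blood. The median log2 difference over the counted members was -0.0029, 0.03 and -0.00038 in amygdala, in the same order, beside 0.01, -0.02 and -0.01 over all genes. In blood it was 0.19 over 5 members, -0.16 over 3 and 0.24 over 5, beside -0.01, -0.01 and -0.02 over all genes.

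The hormone genes come first. Gh, which encodes growth hormone, lies at chr11:106300271-106301865 on the minus strand of GRCm38 and has 5 exons. Its amygdala level was 0, 0, 0.109, 0.168, 0 and 0 FPKM in HC libraries 1 to 6, and 0, 0.0511, 0, 0, 0 and 14.3 FPKM in FC libraries 1 to 6. It was 0, 0, 0.427 and 0 FPKM in Immo+FC libraries 1 to 4. A single library, FC library 6, held nearly all the Gh signal of the tissue, and the other 15 libraries lay between 0 and 0.427 FPKM. The groups overlapped, and without that library the gene fell under the expression minimum, so no test of it is given.

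Prl encodes prolactin and lies at chr13:27057570-27065205 on the plus strand. It was listed at 0 in every HC library, at 2.79 FPKM in FC library 6 and 0 in the other 5 FC libraries, and at 0.0542 FPKM in Immo+FC library 3 and 0 in the other 3. The high library was therefore the same one for both hormones, and the only other library with any Prl was the Immo+FC library with the most Gh outside FC library 6. Its mean stayed under the minimum, so Prl was not tested.

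The genes whose log2(FPKM + 0.1) values most resembled Gh over the 16 amygdala libraries were Mir199b (Pearson r = 0.93), Pomc (0.85), Itga7 (0.75), Chst11 (0.72) and Harbi1 (0.71), out of 12355 genes averaging 1 FPKM or more. For Prl the first 2 were also Mir199b (0.99) and Pomc (0.94). These values rest on 1 library. Pomc, the gene of the pituitary hormone precursor proopiomelanocortin, was at 12.9 FPKM in FC library 6 and at 0.778 to 1.59 FPKM in the other 15. Genes above 1 FPKM and above 5 times the level of every other amygdala library numbered 4 in FC library 6, namely Mir199b, Gh, Pomc and Prl, against 0 to 3 in the other libraries.

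Of 11 anterior pituitary markers, 4 were highest in FC library 6, namely Pomc, Cga (0.330 FPKM against at most 0.0823), Fshb (0.0458 against 0) and Gnrhr (0.0318 against 0). The other 7 were not, and the transcription factor genes Pou1f1 and Tbx19 were listed at 0 in that library. Fshb and Gnrhr were near 0 even there, and FC library 6 was the deepest amygdala library, with 31366290 sequences. The share of all genes that were highest in it was not computed. The summed level of the 11 markers was 13.7 FPKM in FC library 6, and ranged over 0.981 to 2.29 FPKM in HC, from 1.30 FPKM in FC and from 1.22 to 2.42 FPKM in Immo+FC. The part of pituitary transcripts in the Gh and Prl values was not tested. The plot of the 3 hormone genes shows the one FC point above all others in each panel.

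**Figure D2:**
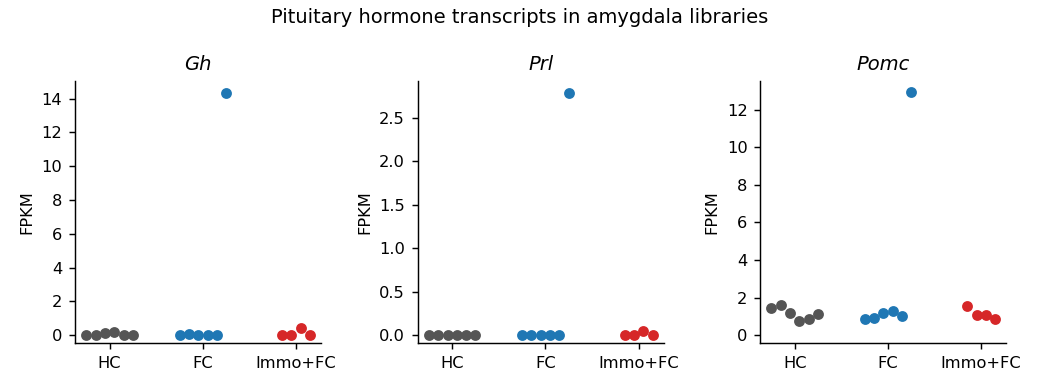
Gh, Prl and Pomc in FPKM in the 16 amygdala libraries by group, each point 1 library in label order. FC library 6 is at 14.3 FPKM for Gh, 2.79 FPKM for Prl and 12.9 FPKM for Pomc, and every other library is at or under 0.427, 0.0542 and 1.59 FPKM.

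The pituitary factor POU1F1 is known to act on the promoters of both hormone genes, and the Prl promoter is shown for its letters. The 250 bases before the Prl start (RefSeq, GRCm38.p6, chr13:27057320-27057569, plus strand) hold TATNCAT, a spelling of the POU1F1 motif, 2 times when both strands are searched. The matches, in capitals, do not overlap each other:
Prl: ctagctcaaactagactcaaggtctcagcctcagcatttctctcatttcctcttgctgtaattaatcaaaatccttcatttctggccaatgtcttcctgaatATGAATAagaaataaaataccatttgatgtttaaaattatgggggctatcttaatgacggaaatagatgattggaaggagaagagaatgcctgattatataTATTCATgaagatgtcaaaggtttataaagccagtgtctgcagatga
TATNCAT was found in 7.92% of 32851 RefSeq promoter windows of that length, and among the 14 windows of 9 members in the table it was found only in that of Prl. Gh was not among the 9. A match is a description of letters only.

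In blood, Gh was above 0 in every library and had its lowest mean after immobilization and conditioning. It was 3.75, 2.88, 1.10 and 2.92 FPKM in HC libraries 1 to 4 and 4.87, 2.35, 1.02, 3.81 and 3.81 FPKM in FC libraries 1 to 5. In Immo+FC libraries 1 to 5 it was 0.524, 0.483, 0.984, 0.993 and 1.44 FPKM. All 5 Immo+FC libraries were under 3 of the 4 HC libraries and 4 of the 5 FC libraries, and the overlap came from library 3 of each of those groups. Means were 2.66 ± 1.11 FPKM (SD, n = 4) in HC, 3.17 ± 1.5 (n = 5) in FC and 0.886 ± 0.396 (n = 5) in Immo+FC.

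On the log2(FPKM + 0.1) scale, blood Gh in Immo+FC differed from FC by -1.66 (SE 0.42), given with no test. Against HC the difference was -1.46 (SE 0.45, adjusted p = 0.129 in limma), and FC and HC differed by 0.20 (SE 0.45, adjusted p = 0.916 in limma). Neither passed the threshold. The comparison with HC uses the same Immo+FC libraries as the untested one with FC, so its p-values are a description and no independent support. The call against HC depended on the libraries, since without HC replicate 3 the difference was -1.82 with an adjusted p of 0.0416, and with limma's array weights it was -1.74 with an adjusted p of 0.0372.

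B cell transcripts moved with blood Gh in part. Cd79b, which encodes a B cell receptor subunit, is the nearest annotated neighbour of Gh, 9476 bases away on the same strand, and FPKM do not show where in the locus the reads lay. Cd79b was 579, 660, 765, 781 and 798 FPKM in Immo+FC libraries 1 to 5 and 839, 916, 1033, 895 and 1118 FPKM in the FC libraries, so the groups did not overlap. It was 841, 999, 545 and 1051 FPKM in HC libraries 1 to 4, where library 3, also the lowest HC library for Gh, was the lowest of all 14. FC library 3 went the other way, with the lowest Gh of its group (1.02 FPKM) beside 1033 FPKM of Cd79b.

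The summed level of 8 B cell markers was 1521 to 2274 FPKM in Immo+FC, 2285 to 2942 in FC and 1307 to 2644 in HC. Over the 14 blood libraries, log2 Gh had a Pearson r of 0.66 with Cd79b, 0.60 with the B cell sum and -0.66 with the neutrophil sum. Without the 2 libraries farthest from the median of the second measure these were 0.58, 0.51 and -0.55. Points share the library and its scaling, and the part of cell makeup in the Gh values was not tested. In bulk blood, fewer cells of a type and less RNA per cell cannot be told apart. Blood cell counts were also taken in the study, and they are not analysed here.

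Ghr encodes the GH receptor (chr15:3317760-3583492, minus strand, 11 exons). In amygdala it was 2.78, 2.91, 3.36, 2.49, 3.04 and 2.6 FPKM in HC, 2.48, 2.38, 2.48, 2.81, 3.45 and 2.47 FPKM in FC, and 2.37, 2.27, 2.45 and 2.76 FPKM in Immo+FC, in label order. The groups overlapped, with means of 2.87 ± 0.316 (n = 6), 2.68 ± 0.405 (n = 6) and 2.46 ± 0.208 FPKM (n = 4). Log2 differences were -0.10 (SE 0.09) for FC against HC, -0.11 (SE 0.10) for Immo+FC against FC and -0.21 (SE 0.10) for Immo+FC against HC, with limma adjusted p of 0.699, 0.762 and 0.408. In blood it was 0.116 to 0.317 FPKM in HC, 0 to 0.161 in FC and 0 to 0.228 in Immo+FC, listed at 0 in 3 libraries, and was not tested.

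Igf1, the GH-regulated ligand, lies at chr10:87858265-87937042 on the plus strand. In amygdala its lowest, median and highest values were 0.764, 0.921 and 1.15 FPKM in HC and 0.802, 0.891 and 1.10 FPKM in FC. In Immo+FC libraries 1 to 4 it was 0.771, 1.37, 0.645 and 1.11 FPKM, which spanned the range of both other groups. Log2 differences between groups were 0.01 to 0.04 in size, with SE of 0.15 to 0.17 and limma adjusted p of 0.946 to 0.990. In blood Igf1 was under 0.15 FPKM in 13 libraries and 0.465 FPKM in Immo+FC library 1. An antisense gene, Igf1os, overlaps Igf1, and with counting not stated to use strand its reads cannot be told apart.

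Igf2 in amygdala differed more between libraries of 1 group than between groups. Igf2, a fetal growth ligand expressed from the paternal allele in most tissues, lies at chr7:142650766-142666816 on the minus strand, and overlaps Igf2os, Gm49394 and Mir483. It was 10.5, 14.4, 7.03, 3.29, 2.91 and 3.34 FPKM in HC libraries 1 to 6, and 3.25, 2.81, 3.90, 8.76, 13.8 and 8.04 FPKM in FC libraries 1 to 6. In Immo+FC libraries 1 to 4 it was 11.5, 14.2, 10.5 and 4.15 FPKM. The lowest values were in HC and FC, and high libraries were found in every group. In Immo+FC the lowest library had 4.15 FPKM and 3 of 4 were above 10 FPKM, and the groups overlapped. Both differences from HC share libraries with the untested one between Immo+FC and FC, so their p-values are a description and no independent support. The log2 difference of Immo+FC from FC was 0.68 (SE 0.51), given with no test. That from HC was 0.68 (SE 0.51, adjusted p = 0.618 in limma), and FC differed from HC by 0.00 (SE 0.46, adjusted p = 1 in limma).

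Igfbp2, a binding protein gene with 4 exons at chr1:72824503-72852474 on the plus strand, followed the same libraries. It was 20.2, 23.1, 15.6, 11.3, 7.66 and 9.61 FPKM in HC libraries 1 to 6 and 9.96, 11.2, 13.3, 17.0, 21.3 and 12.8 FPKM in FC libraries 1 to 6. Immo+FC libraries 1 to 4 had 21.6, 21.7, 15.1 and 10.7 FPKM. HC libraries 1 and 2, FC library 5 and Immo+FC libraries 1 and 2 were high for both genes. Log2 differences of Igfbp2 were 0.03 (SE 0.26), 0.26 (SE 0.29) and 0.29 (SE 0.29) for FC against HC, Immo+FC against FC and Immo+FC against HC, with limma adjusted p of 0.977, 0.800 and 0.719.

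Over the 16 libraries log2 Igf2 and log2 Igfbp2 had a Pearson r of 0.93. The genes most like Igf2 were Enpp2 (r = 0.99), Kl (0.99), Slc2a12 (0.98), Kcne2 (0.98) and Slc13a4 (0.98), and those most like Igfbp2 were Sostdc1 (0.95), Msx1 (0.95), Slc2a12 (0.94), Wfdc2 (0.94) and Slc4a2 (0.94). Kl, Kcne2 and Sostdc1 stand in the list of 14 choroid plexus markers and Slc13a4 in that of 15 leptomeningeal markers.

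The choroid plexus forms cerebrospinal fluid and is no part of the amygdala. Its summed markers ranged over 4.60 to 1082 FPKM in HC, 5.39 to 934 in FC and 118 to 983 in Immo+FC, with medians of 160, 231 and 710 FPKM. Leptomeningeal sums were 17.1 to 53.8, 17.1 to 50.2 and 24.5 to 49.1 FPKM. Ttr, the choroid gene of transthyretin, was under 5 FPKM in 5 libraries, where Igf2 was 2.81 to 3.34 FPKM and Igfbp2 7.66 to 11.3 FPKM. It was at least 50 FPKM in the other 11, where Igf2 was 3.90 to 14.4 FPKM and Igfbp2 10.7 to 23.1 FPKM. All 5 low libraries were of HC or FC, and the lowest Ttr in Immo+FC was 109 FPKM.

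Within those 11 libraries the Pearson r with the choroid plexus sum was 0.98 for Igf2 and 0.86 for Igfbp2. Within the 6 HC libraries it was 0.98 and 0.95, and within the 6 FC libraries 0.94 and 0.87. Over all 16 libraries the r with the choroid plexus sum was 0.94 for Igf2 and 0.88 for Igfbp2. With the leptomeningeal sum it was 0.93 and 0.85, and with the neuron sum -0.69 and -0.54. The choroid plexus relation was not computed within the 4 Immo+FC libraries, and the leptomeningeal one was not computed within any group. The part of choroid plexus or meningeal tissue in the group values was not tested. In blood Igf2 was 0.0909 to 0.690 FPKM and Igfbp2 0 to 0.723 FPKM, neither tested. The plot against the choroid plexus sum shows Igf2 flat at the low end and rising in the libraries with more choroid transcripts.

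**Figure D3:**
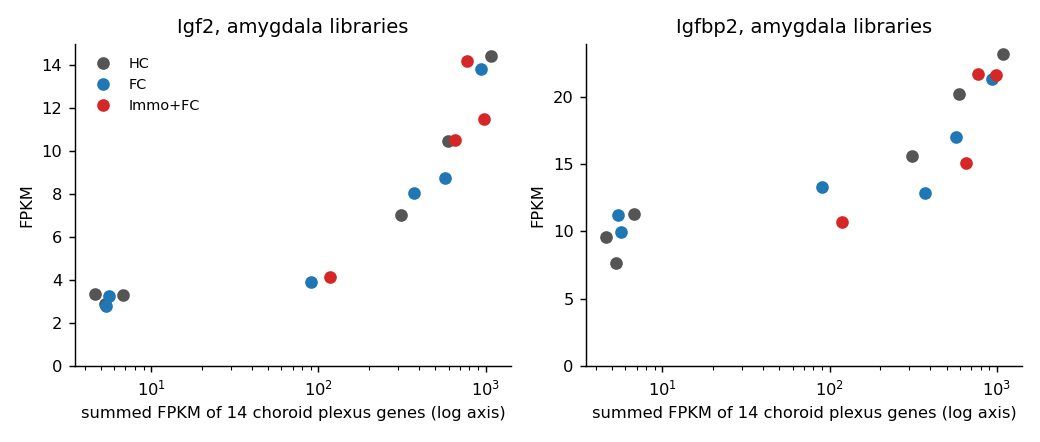
Igf2 (left) and Igfbp2 (right) in FPKM against the summed FPKM of 14 choroid plexus genes on a log axis, each point 1 of the 16 amygdala libraries, coloured by group. Libraries of all 3 groups lie along 1 course, from 2.81 FPKM of Igf2 at the low end to 14.4 FPKM at the high end.

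The promoter windows of the 2 genes are shown because their levels moved together. Each is the 250 bases before a start (RefSeq, GRCm38.p6), at chr7:142657497-142657746 on the minus strand for Igf2, 1 of its 4 starts in the table, and at chr1:72824230-72824479 on the plus strand for Igfbp2, 1 of its 2 starts. They are the windows of each gene with the most matches of the motif below. Capitals mark GGGCGG, a spelling of the Sp1 motif, searched on both strands:
Igf2: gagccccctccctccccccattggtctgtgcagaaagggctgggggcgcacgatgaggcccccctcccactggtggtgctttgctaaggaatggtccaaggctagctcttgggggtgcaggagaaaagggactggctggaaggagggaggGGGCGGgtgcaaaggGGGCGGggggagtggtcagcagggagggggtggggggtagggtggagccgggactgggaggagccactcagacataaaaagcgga
Igfbp2: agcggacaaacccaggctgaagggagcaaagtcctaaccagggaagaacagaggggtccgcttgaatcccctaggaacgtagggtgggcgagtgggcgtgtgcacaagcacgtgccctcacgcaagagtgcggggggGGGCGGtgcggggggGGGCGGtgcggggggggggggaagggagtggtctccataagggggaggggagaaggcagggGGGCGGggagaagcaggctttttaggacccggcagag
GGGCGG was present 2 times in the Igf2 window and 3 times in that of Igfbp2. The other 3 Igf2 windows held it 0, 0 and 1 times and the other Igfbp2 window 0 times, and it was present in 32.7% of the 32851 windows. Windows of Igf1r, Ghr and Igf2r held it too. A match is a description of letters only, and a part of the motif in the Igf2 and Igfbp2 levels was not tested. The spellings TAATCC (OTX2, a choroid plexus factor, 6.25% of windows), TTCNNNGAA (STAT5, 7.02%) and GTAAACA (FOXO, 3.17%) were found in 0 of the 14 member windows.

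Igf1r, the signalling receptor of both ligands, lies at chr7:67952827-68233668 on the plus strand, with a longest transcript of 11409 bases. In amygdala it was 5.32, 5.00, 6.55, 5.57, 5.06 and 5.12 FPKM in HC, 5.33, 5.24, 5.26, 5.66, 5.70 and 5.61 FPKM in FC, and 4.77, 6.49, 5.16 and 5.63 FPKM in Immo+FC. Group means were 5.43 ± 0.583, 5.47 ± 0.212 and 5.51 ± 0.741 FPKM, and log2 differences were 0.01, 0.00 and 0.02 with SE of 0.07 to 0.08 (limma adjusted p 0.964, 0.994 and 0.953). Its log2 level had a Pearson r of 0.80 with the sum of 8 astrocyte markers over the 16 libraries, and 0.62 without the 2 farthest.

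In blood Igf1r had its highest mean in Immo+FC. It was 0.923, 0.921, 1.87 and 1.27 FPKM in HC libraries 1 to 4, 1.62, 1.40, 0.819, 1.79 and 1.45 FPKM in FC libraries 1 to 5, and 3.44, 3.63, 1.98, 2.14 and 1.55 FPKM in Immo+FC libraries 1 to 5. Immo+FC libraries 1 to 4 were above all 9 others and library 5 lay among them. The mean was 2.55 ± 0.928 FPKM (SD, n = 5) in Immo+FC, 1.42 ± 0.368 (n = 5) in FC and 1.25 ± 0.448 (n = 4) in HC. The log2 difference of Immo+FC from FC was 0.77 (SE 0.28), given with no test.

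Against HC the difference in blood Igf1r was 0.96 (SE 0.29, adjusted p = 0.129 in limma). It did not pass the threshold, and with array weights it was 1.14 with an adjusted p of 0.0345 in limma. These p-values rest on the same Immo+FC libraries as the untested difference from FC and are no independent support. FC differed from HC by 0.19 (SE 0.29, adjusted p = 0.871 in limma).

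Myeloid transcripts moved with blood Igf1r. The neutrophil sum was 12208 to 44165 FPKM in Immo+FC, 8422 to 20844 in FC and 4488 to 29623 in HC, and the sum of 8 monocyte markers was 376 to 1137, 280 to 539 and 364 to 1006 FPKM. Over the 14 libraries log2 Igf1r had a Pearson r of 0.84 with the neutrophil sum (0.82 without the 2 farthest libraries), 0.80 with the monocyte sum and -0.67 with the B cell sum. The genes most like it were Sema4a (r = 0.96), Gm10872 (0.95), Trpm2 (0.95), Tnfsf14 (0.95) and Fosl2 (0.94), out of 10639. The part of cell makeup in the Igf1r values was not tested.

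Igf2r, which clears IGF2 and sorts lysosomal enzymes, lies at chr17:12682406-12769664 on the minus strand and overlaps the antisense RNA gene Airn. In amygdala it was 5.02, 5.30, 5.39, 5.13, 4.79 and 5.40 FPKM in HC, 4.01, 4.29, 4.06, 4.87, 5.42 and 4.86 FPKM in FC, and 3.89, 5.12, 5.00 and 4.71 FPKM in Immo+FC. Of the 6 FC libraries, 3 were under every HC library and FC library 5 was above them all. The FC against HC difference was -0.18 on the log2 scale (SE 0.08), with an unadjusted p of 0.0375 and an adjusted p of 0.341 in limma.

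Transcripts over 10000 bases varied between amygdala libraries as a class, with a mean deviation of -0.18 log2 units in HC library 1, -0.13 in HC library 2, 0.21 to 0.26 in HC libraries 3 to 6 and -0.32 to -0.09 among the FC libraries. It was -0.22 in Immo+FC library 1 and 0.21 to 0.24 in Immo+FC libraries 2 to 4. The longest Igf2r transcript has 8887 bases, so the gene is outside that class. Over the 16 libraries its log2 level had a Pearson r of 0.60 with the score. It also had an r of 0.67 with the astrocyte sum, 0.60 with the mural cell sum and -0.65 with the brain endothelium sum. Igf1r, with a transcript of 11409 bases, had an r of 0.36 with the score. With the score as a covariate the FC against HC difference of Igf2r was -0.05 (adjusted p = 0.832 in limma). The score itself differed between groups, so the covariate may also take out a group difference. The covariate fit tested the group difference, and the part of the score in the Igf2r values was not tested. Igf2r in Immo+FC differed from FC by 0.03 (SE 0.09) and from HC by -0.15 (SE 0.09), with limma adjusted p of 0.937 and 0.505.

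In blood Igf2r was 2.19, 2.27, 1.57 and 2.04 FPKM in HC, 1.82, 2.13, 2.3, 2.83 and 1.70 FPKM in FC, and 1.62, 1.34, 1.81, 1.82 and 2.45 FPKM in Immo+FC. The groups overlapped, and log2 differences were 0.08 (SE 0.19), -0.25 (SE 0.18) and -0.16 (SE 0.19), with limma adjusted p of 0.919, 0.678 and 0.753. Its Pearson r with the neutrophil sum was -0.76 (n = 14), opposite in sign to that of Igf1r, and -0.76 again without the 2 farthest libraries.

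Igfbp4, the member with the highest median in both tissues, lies at chr11:99041244-99054392 on the plus strand. Its protein mostly restrains IGF action until it is cleaved by the protease PAPPA. In amygdala its libraries ran from 19.1 to 22.7 FPKM in HC, 19.99 to 21.2 in FC and 17.6 to 21.7 in Immo+FC, with medians of 20.9, 20.9 and 20.7 FPKM. Log2 differences were -0.01, -0.04 and -0.05 with SE of 0.05 to 0.06, and limma adjusted p of 0.962, 0.845 and 0.753.

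In blood Igfbp4 was 91.5, 67.9, 70.1 and 62.9 FPKM in HC, 87.3, 79.4, 95.2, 103 and 115 FPKM in FC, and 72.1, 76.1, 99.0, 86.0 and 97.6 FPKM in Immo+FC. FC was above 3 of the 4 HC libraries in every case, and HC library 1 overlapped it. The FC against HC difference was 0.40 (SE 0.14), with an unadjusted p of 0.0141 and an adjusted p of 0.317 in limma. Immo+FC differed from FC by -0.16 (SE 0.13) and from HC by 0.24 (SE 0.14), with limma adjusted p of 0.729 and 0.457.

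T cell transcripts moved with blood Igfbp4. The sum of 8 T cell markers was 407 to 544 FPKM in HC, 544 to 728 in FC and 424 to 683 in Immo+FC. The Pearson r of log2 Igfbp4 with it was 0.88 over the 14 libraries and 0.83 without the 2 farthest. Its most similar genes included the T cell genes Cd8b1 (r = 0.89), Thy1 (0.88) and Zap70 (0.87), next to Tubb5 (0.89). The part of cell makeup in the Igfbp4 values was not tested.

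**Figure D4:**
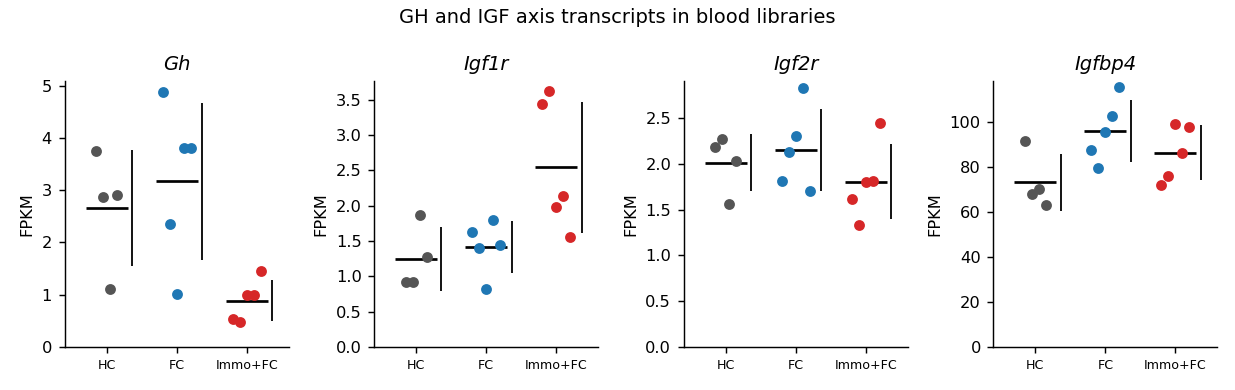
Gh, Igf1r, Igf2r and Igfbp4 in FPKM in the 14 blood libraries by group, each point 1 library. The horizontal bar is the group mean and the vertical line beside it spans 1 SD either way. Gh averages 0.886 FPKM in Immo+FC against 3.17 in FC, and Igf1r 2.55 against 1.42, with some overlap in each.

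**Figure D5:**
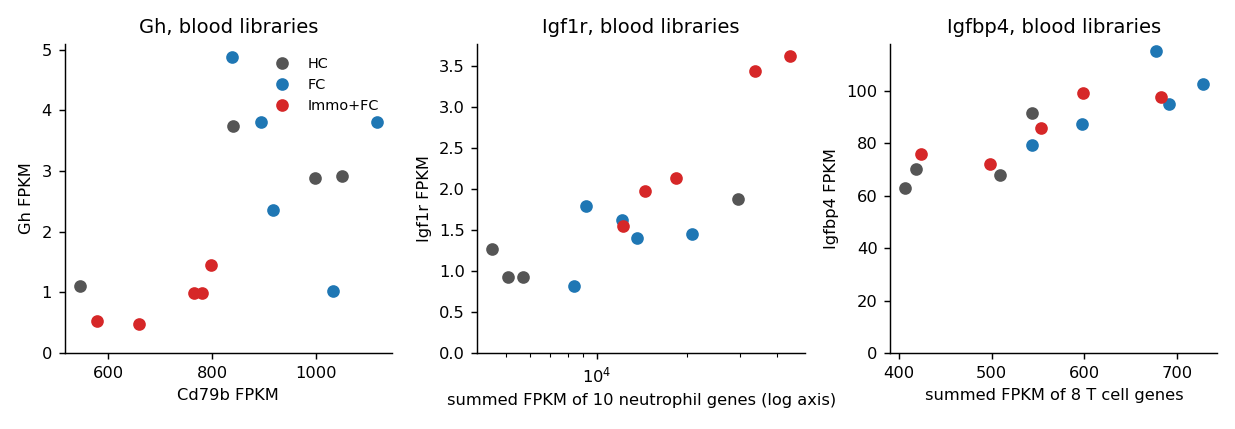
Blood libraries by Gh against Cd79b, Igf1r against the summed FPKM of 10 neutrophil genes on a log axis, and Igfbp4 against the summed FPKM of 8 T cell genes, all in FPKM, each point 1 library coloured by group. The Pearson r of the log2 values is 0.66, 0.84 and 0.88.

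Igfbp5, a binding protein gene at chr1:72857932-72874884 on the minus strand next to Igfbp2, spanned a 1.54-fold range over the amygdala libraries. In HC it ranged over 14.2 to 15.5 FPKM with a median of 15.0 FPKM, and FC libraries ran from 12.2 to 15.0 FPKM with a median of 14.4 FPKM. Immo+FC libraries 1 to 4 had 12.6, 18.8, 13.3 and 14.8 FPKM. Log2 differences were -0.09 (SE 0.08), 0.07 (SE 0.09) and -0.02 (SE 0.09), with limma adjusted p of 0.685, 0.830 and 0.953. HC library 2, the highest of all for its neighbour Igfbp2, had 15.3 FPKM of Igfbp5, and HC library 5, the lowest for Igfbp2, had 14.2 FPKM. In blood it was 0.357 to 0.476 FPKM in HC, 0.288 to 0.845 in FC and 0.278 to 1.35 in Immo+FC, with limma adjusted p of 0.915, 0.839 and 0.614.

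Beyond the 10 genes, 70 others of the pathway were listed by role, but with earlier results of these data known. Their counts and p-values are therefore a description. Of the 70, 52 entered the test in amygdala and 41 in blood. The 41 include 1 doubtful entry, since Igf2bp1 was matched through a synonym to Zbp1 (blood mean 48.2 FPKM). Zbp1 is also the symbol of the gene of Z-DNA binding protein 1, so the entry most likely does not measure Igf2bp1. It reached neither threshold below in any comparison. In amygdala 0 of 52 passed the threshold in each comparison. At an unadjusted p under 0.05, 4 were higher and 3 lower in FC against HC, 2 higher and 1 lower in Immo+FC against FC, and 5 higher and 1 lower in Immo+FC against HC, where 13.1%, 10.4% and 13.1% of all genes reached that level. In blood 0 of 41 passed in each comparison, and the same counts were 0 and 2, 4 and 1, and 7 and 1, beside 10.2%, 9.54% and 15.3% of all genes.

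Among the 12 tested amygdala genes of GH and prolactin receptor signalling, Jak2, the kinase bound to both receptors, was 6.62 to 8.40 FPKM in HC, 7.87 to 9.55 in FC and 9.26 to 10.03 in Immo+FC. Immo+FC and HC did not overlap, and the log2 difference was 0.33 (SE 0.07), with an unadjusted p of 0.000114 and an adjusted p of 0.0531 in limma. FC differed from HC by 0.21 (SE 0.06, adjusted p = 0.128 in limma). Prlr, the prolactin receptor gene, was 0.129 to 1.41 FPKM in HC, 0.160 to 1.68 in FC and 0.765 to 1.90 in Immo+FC (log2 difference from HC 1.40, SE 0.59, adjusted p = 0.316 in limma). Its r with the choroid plexus sum was 0.92 over the 16 amygdala libraries and 0.83 over the 11 with Ttr of at least 50 FPKM.

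In blood, Socs3, a feedback inhibitor of cytokine receptors that use JAK kinases, was 45.2 to 96.5 FPKM in Immo+FC, 27.4 to 43.1 in FC and 22.3 to 52.0 in HC. Immo+FC did not overlap FC. The log2 difference was 0.94 from FC (SE 0.25, adjusted p = 0.523 in limma) and 1.09 from HC (SE 0.26, adjusted p = 0.0797 in limma). Ptpn1, a phosphatase of JAK2 and of the insulin receptor, differed by 0.47 (SE 0.16, adjusted p = 0.523 in limma) and 0.54 (SE 0.17, adjusted p = 0.146 in limma). Its blood level was 59.1 to 97.8 FPKM in Immo+FC, 45.8 to 62.9 in FC and 45.8 to 65.6 in HC. Neutrophil transcripts moved with both genes, with a median sum of 18398 FPKM in Immo+FC, 12131 in FC and 5363 in HC. The r with that sum over the 14 libraries was 0.86 for Socs3 and 0.81 for Ptpn1, and 0.77 and 0.73 without the 2 farthest. HC library 3, the HC library rich in neutrophil transcripts, had 52.0 FPKM of Socs3 against 22.3 to 31.7 in the other 3. The part of cell makeup in these values was not tested.

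Of the genes that control GH release, 5 were tested in amygdala. Sstr2, a somatostatin receptor gene, was 11.01 to 18.1 FPKM in HC and 13.9 to 24.2 in FC (log2 difference 0.46, SE 0.14, adjusted p = 0.155 in limma). Sstr1 was 8.53 to 13.7 FPKM in HC and 6.97 to 9.37 in Immo+FC (difference -0.39, SE 0.13, adjusted p = 0.210 in limma). In blood Sst alone was tested, at 1.29 to 10.8 FPKM in HC, 0 to 2.86 in FC and 0 to 2.53 in Immo+FC. Sst is the gene of somatostatin, a peptide of neurons, and its mean was highest in HC blood, the group with the highest neuron sums; their part in it was not tested.

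In the insulin group the insulin receptor gene Insr had its lowest mean in FC in both tissues, at 4.56 to 5.59 FPKM against 5.26 to 6.21 in HC amygdala and 1.61 to 2.06 FPKM against 1.98 to 3.07 in HC blood. The log2 differences were -0.21 (SE 0.07, adjusted p = 0.173 in limma) and -0.47 (SE 0.15, adjusted p = 0.250 in limma). Most pools gave both tissues, so these differences are not independent. In amygdala Insr had an r of 0.88 with the long transcript score, and with the score as a covariate the difference was -0.05 (adjusted p = 0.733 in limma). The score differed between groups, so the covariate may also take out a group difference. That fit tested the group difference, and the part of the score in the Insr values was not tested. Irs2, an adaptor of the insulin and IGF1 receptors, differed between FC and HC amygdala by 0.33 (SE 0.12, adjusted p = 0.238 in limma). Of the binding proteins and proteases, Htra1, a secreted protease that can cleave binding proteins, was 33.5 to 47.6 FPKM in HC amygdala, 42.5 to 50.2 in FC and 42.2 to 54.1 in Immo+FC (difference from HC 0.28, SE 0.08, adjusted p = 0.172 in limma).

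All 21 genes of the PI3K, AKT, FOXO and mTOR list were tested in both tissues. Rictor, a subunit of mTOR complex 2, was 4.88 to 6.61 FPKM in HC amygdala, 4.35 to 5.09 in FC and 5.18 to 6.66 in Immo+FC, and Immo+FC did not overlap FC. The log2 difference was -0.30 for FC against HC (SE 0.08, adjusted p = 0.121 in limma) and 0.36 for Immo+FC against FC (SE 0.09, adjusted p = 0.182 in limma). Rictor followed the long transcript score, with an r of 0.96 over the 16 libraries and 0.95 without the 2 farthest. Libraries with scores under 0 had less of it, at 5.02 and 4.88 FPKM in HC libraries 1 and 2 and 5.18 in Immo+FC library 1, against 6.15 to 6.61 in HC libraries 3 to 6 and 5.97 to 6.66 in Immo+FC libraries 2 to 4. With the score as a covariate the differences were -0.07 (adjusted p = 0.546 in limma) and 0.13 (adjusted p = 0.289 in limma). Score and group overlap here too, so the 2 cannot be told apart, and the part of the score was not tested. In blood Akt1, a kinase of the pathway, differed between Immo+FC and FC by 0.39 (SE 0.13) and Tsc2, part of a brake on mTOR, by -0.37 (SE 0.12), both with an adjusted p of 0.523 in limma, and their r with the neutrophil sum was 0.82 and -0.46. The median log2 difference of the 21 genes lay between -0.06 and 0.07 in all 6 comparisons.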

How the data were processed

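RNA was sequenced from 16 amygdala and 14 blood libraries (poly-A TruSeq). Per the labels and methods, the authors mapped the reads (STAR 2.3, mm10) and obtained FPKM values from Cufflinks and Cuffdiff 2.1.1, each tissue separately. Strand use was not stated. The deposited mapping statistics gave sequence counts per library and the percent mapped uniquely (91.3 to 92.3 percent in amygdala, 60.1 to 72.6 percent in blood). FPKM keep no read counts, so no counting interval is given. An FPKM of exactly 0 is reported as listed at 0.

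Members were found by symbol; the members and gene lists were chosen with earlier results of these data known. Groups came from the sample labels. Each tissue was fitted with limma 3.58.1 (R 4.3.3, trend) on log2(FPKM + 0.1) for genes averaging 0.5 FPKM or more, 3 groups in 1 fit, two-sided, Benjamini-Hochberg over 13508 amygdala or 11656 blood genes. Fold changes on this scale understate those of low genes. The code was tested on simulated data. All members are named; from each pathway list up to 3 genes with the smallest unadjusted p per tissue; for likeness the 5 genes of highest Pearson r. Alternatives were pseudocounts of 0.01 and 1 FPKM, minimums of 0, 0.1 and 1 FPKM, median-ratio scaling, 2-group fits, array weights, a long transcript covariate, the replicate number as block, and leaving out each library. Positions are from GENCODE (GRCm38), promoters from RefSeq.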

Additional observations from a re-analysis of the deposited data

Results flagged for a closer look

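Of 56 sets of a member's values within 1 group, 6 had a library far from the others by Dixon's criterion, and chance alone gives about 1 in 20. In amygdala FC library 6, Gh was 14.3 FPKM against at most 0.0511 FPKM in the other FC libraries, and Prl was 2.79 FPKM against 0. In amygdala Immo+FC library 3, Gh was 0.427 FPKM and Prl 0.0542 FPKM, with both listed at 0 in the other 3 libraries of the group. Igf1 in blood was 0.465 FPKM in Immo+FC library 1 against at most 0.0401 FPKM in the other 4. Igf1r in amygdala was 6.55 FPKM in HC library 3 against at most 5.57 FPKM in the other 5. In groups listed mostly at 0, any single value above 0 meets the criterion.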

How the results depend on the processing

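The log2 differences of the members kept their direction and their side of the threshold (where no test is given, moved by less than 1 SD) in 982 of 1047 recomputed values; 62 moved without a call and 3 passed the threshold. The 3 were in blood, Immo+FC against HC: array weights called 2 members (Gh and Igf1r), and leaving out single libraries called 0 to 1 (Gh without HC replicate 3). These calls use the same Immo+FC libraries as the blood differences given with no test. Counts of called pathway genes, 0 in the reported fits, changed as follows. In amygdala, FC against HC, array weights gave 2 (Rictor, Insr). For Immo+FC against FC, array weights gave 1 (Rictor), and leaving out libraries 0 to 1 (Rictor without Immo+FC replicate 1). For Immo+FC against HC, a minimum of 1 FPKM, median-ratio scaling and the long transcript covariate each gave 1 (Jak2), and leaving out libraries 0 to 1 (Jak2 without Immo+FC replicate 4 or HC replicate 3). In blood, no filter on low values gave 1 (Sstr2) in FC against HC and in Immo+FC against HC. In the latter, array weights gave 2 (Socs3, Ptpn1), and leaving out libraries 0 to 3 (Socs3, Igfbp6 and Akt2 without HC replicate 3). The cause was not tested.

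Deviations of same-numbered libraries had r of -0.26 to 0.31. Libraries of different number were not compared with these, so the values do not settle whether replicate numbers pair the libraries. In amygdala the replicate block gave 160 called genes in FC against HC, 62 in Immo+FC against FC and 0 in Immo+FC against HC. The reported fits gave 2, 3 and 27. In blood the block gave 2, 0 and 8 and the reported fits 4, 0 and 8. With the replicate block, 0 members passed in any comparison, and 1 pathway gene (Rictor) passed in amygdala FC against HC and 1 (Rictor) in Immo+FC against FC. Over all settings the count of all genes past the threshold ran from 1 to 500 in amygdala FC against HC, 1 to 171 in Immo+FC against FC and 0 to 148 in Immo+FC against HC. In blood it ran from 1 to 195 in FC against HC and 1 to 361 in Immo+FC against HC, and was 0 in Immo+FC against FC under every setting run, where 1112 genes had an unadjusted p under 0.05 in limma.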
